A study of Homo sapiens with 7 samples.

Results

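The 7 genes described here are the 3 Runx transcription factor genes (RUNX1, RUNX2 and RUNX3), CBFB, and the 3 genes of the ETO family (RUNX1T1, CBFA2T2 and CBFA2T3), out of 20162 protein-coding genes in the annotation. The set is defined by gene name and not by a measured value. RUNX1 and RUNX1T1 are the genes joined in the AML1-ETO fusion, and the other 5 are their relatives and the common partner CBFB. A peak was assigned to a gene when its summit lay in the annotated gene or within 5 kb of it, and a wider view took 50 kb. By this rule the genes held 130 summits of the 5 peak lists, of which 73 were at RUNX1, 27 at CBFA2T3, 18 at RUNX2, 5 at RUNX3, 4 at CBFB, 3 at CBFA2T2 and 0 at RUNX1T1.

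Runx proteins bind DNA through the runt homology domain, and CBFβ, the product of CBFB, binds that domain and strengthens the contact without touching DNA itself. ETO family proteins do not bind a DNA sequence of their own but bring the co-repressor N-CoR and histone deacetylases to promoters and enhancers. In t(8;21) leukemia the runt domain of AML1, the product of RUNX1, is fused to nearly the whole of ETO, so that the exons of RUNX1T1 on the rearranged chromosome are transcribed from the promoters of RUNX1.

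All libraries came from Kasumi-1, a single established line of myeloblasts from peripheral blood that carries t(8;21), grown without treatment and used at passages p25-30. Peaks were deposited for 5 antibodies, with 18087 summits for AML1-ETO, 11692 for AML1, 10004 for the co-repressor N-CoR, 11020 for the acetyltransferase p300 and 19632 for H3K4me3, the histone mark of active promoters. The AML1 antibody binds the C-terminus, which the fusion lacks, whereas the fusion was recovered with an antibody to ETO, which can also bind unfused ETO. Reads from the normal and the rearranged copies of RUNX1 and RUNX1T1 map to the same reference positions, so the alleles cannot be told apart. Each list pools 2 biological replicates and holds positions without heights, read counts or p-values. The depth behind a summit is therefore unknown, there is no spread between replicates, and no test was made. Intervals behind shares are 95% intervals by the exact Clopper-Pearson method and reflect counting error alone, and shares over the members are given beside those over the whole list or all genes. The labelled cell type was checked with H3K4me3 at promoters: all 6 myeloblast markers (KIT, CD34, MPO, CD33, SPI1 and ELANE) had a summit within 1000 bp of a start, as did 1 of 8 markers of T, B, erythroid and epithelial cells. The exception was EPCAM, with a summit 128 bp from a start.

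The sequences at which all 4 mapped proteins met, found at RUNX1 and CBFA2T3 alone among the 7 genes, are shown first. They are windows of AML1-ETO peaks on the plus strand of GRCh37 (hg19), 5′ to 3′, with capitals marking TGTGGT, the core of the Runx site, and AGGAAG or GAGGAA, cores of the ETS family and its member PU.1, each on either strand. The ETS letters overlap one another in GAGGAAG. Where a window touches an exon, 30 bases are printed. Distances are from the canonical transcription start, positive downstream. Of the 6 at RUNX1, 5 were the following, with the 30 bases at the distal promoter, where 3 of the 4 proteins met.
RUNX1 +184 kb, intron 5, chr21:36238007-36238106: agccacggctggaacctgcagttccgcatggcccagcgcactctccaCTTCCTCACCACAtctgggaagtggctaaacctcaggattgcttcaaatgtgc
RUNX1 +141 kb, intron 2, chr21:36280814-36280913: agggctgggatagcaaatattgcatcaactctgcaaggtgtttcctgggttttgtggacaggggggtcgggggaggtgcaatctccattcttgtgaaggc
RUNX1 +138 kb, intron 2, chr21:36283762-36283861: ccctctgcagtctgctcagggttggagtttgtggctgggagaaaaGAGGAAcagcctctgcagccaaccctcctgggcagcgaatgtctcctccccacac
RUNX1 +22.4 kb, intron 2, chr21:36399150-36399249: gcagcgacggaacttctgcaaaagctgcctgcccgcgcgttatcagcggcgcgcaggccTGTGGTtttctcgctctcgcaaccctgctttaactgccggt
RUNX1 distal start, exon 1, chr21:36421552-36421581: ggctacccaactTGTGGTtcTGTGGTtgtt
RUNX1 -2.24 kb, upstream of the distal start, chr21:36423792-36423891: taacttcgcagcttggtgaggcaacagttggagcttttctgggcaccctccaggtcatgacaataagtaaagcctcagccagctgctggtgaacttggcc
The 30 bases at the distal start hold TGTGGT in 2 copies, and the +184 kb window holds a Runx core and an ETS core side by side. The windows at +141 kb and -2.24 kb hold none of the 3 sequences. The sites of all 4 proteins at CBFA2T3 were these.
CBFA2T3 +56.2 kb, intron 1, chr16:88987391-88987490: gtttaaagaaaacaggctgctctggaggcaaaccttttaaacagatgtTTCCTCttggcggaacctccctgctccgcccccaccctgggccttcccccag
CBFA2T3 +40.4 kb, intron 1, chr16:89003206-89003235: ccacaggaaactcattgccacagcacaggc
CBFA2T3 +18.9 kb, intron 1, chr16:89024699-89024798: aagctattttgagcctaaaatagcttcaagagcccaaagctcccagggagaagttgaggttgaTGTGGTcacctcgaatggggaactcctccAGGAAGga
CBFA2T3 start, exon 1, chr16:89043567-89043596: ccatctggggccctgccctgcgcggccttc
Of these, the Runx core stands in the +18.9 kb window. Over the 44 AML1-ETO windows at the 7 genes, TGTGGT was found in 13, a share of 29.5% (95% interval 16.8 to 45.2), beside 31.3% of all 18087 AML1-ETO windows. AGGAAG was found in 11, or 25% (13.2 to 40.3), beside 37.5%, and GAGGAA in 8, or 18.2% (8.19 to 32.7), beside 26% of all windows. None of the 3 intervals left out the value of the whole list. A window without these letters may hold other forms of a site.

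Binding was unevenly shared among the 7 genes. AML1 summits were found at 4 of them (RUNX1, RUNX2, CBFB and CBFA2T3), while 34.9% of all protein-coding genes had one in the gene or within 5 kb. AML1-ETO was found at 4 (RUNX1, RUNX2, RUNX3 and CBFA2T3), against 41.4% of all genes, and N-CoR at 3 (RUNX1, RUNX2 and CBFA2T3), against 26.7%. Summits of p300 and of H3K4me3 were each found at 6, all but RUNX1T1, against 45.5% and 68.0%. With 50 kb added on each side, the same 6 genes had a summit of every list, and the shares of all genes were then 80.9% for H3K4me3, 66.5% for AML1-ETO, 64.4% for p300, 59.8% for AML1 and 48.7% for N-CoR. With 7 genes such counts are coarse, and the genes differed more in their numbers of summits.

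**Figure D1:**
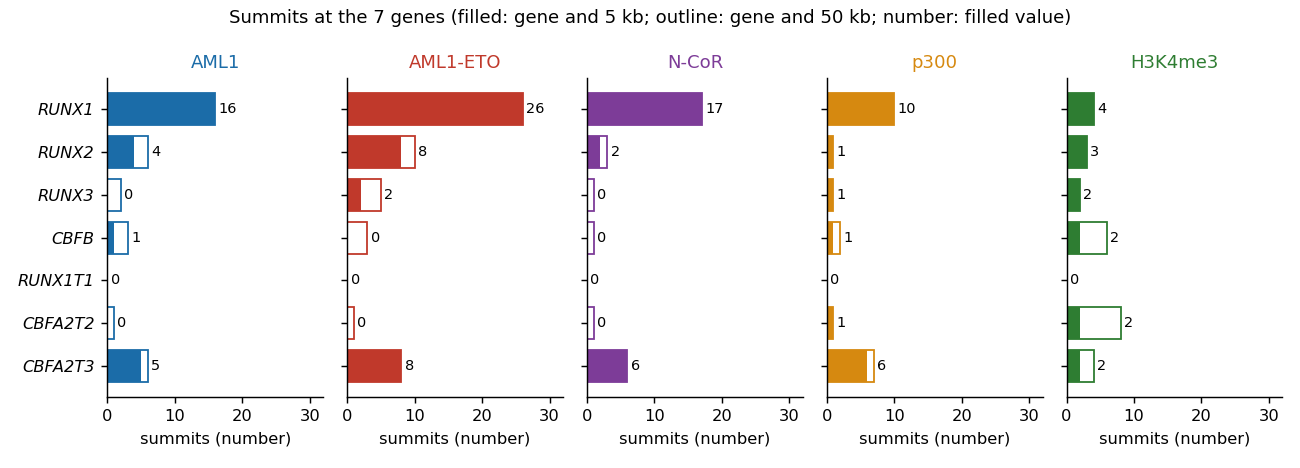
Summits of each list (number, horizontal axis) at the 7 genes (vertical axis), with filled bars and the printed numbers for the gene with 5 kb on each side and outlined bars for 50 kb. RUNX1 had 26 AML1-ETO summits, CBFA2T3 and RUNX2 had 8 each, and RUNX1T1 had 0 in every list.

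RUNX1 had 26 AML1-ETO, 16 AML1, 17 N-CoR, 10 p300 and 4 H3K4me3 summits. By number of summits it stood 1st among the 20162 genes for AML1 and for AML1-ETO, 2nd for N-CoR and 5th, level with 2 others, for p300, but 305th for H3K4me3, where 627 genes had the same number. The gene record spans 1217 kb of the minus strand of chromosome 21 (chr21:36160098-37376965, ENSG00000159216.19) because 5 annotated starts, 1 of them of a coding transcript, lie upstream of the canonical one, whereas the canonical transcript (ENST00000675419.1) covers 262 kb. Per 100 kb of the whole record, AML1-ETO therefore ranked only 5241st of the 20162 genes, 8337 of which had it. Over the canonical transcript with 5 kb on each side, 17 AML1-ETO, 11 AML1, 9 N-CoR, 8 p300 and 4 H3K4me3 summits remained, or 6.26, 4.05, 3.31, 2.95 and 1.47 per 100 kb. The same measure over the canonical transcripts of 19881 protein-coding genes was 1.06, 0.689, 0.576, 0.892 and 1.63 per 100 kb. By number on this extent RUNX1 stood 2nd for AML1, 7th for AML1-ETO, 15th for N-CoR and 7th for p300, genes with equal numbers sharing a rank. By density on the same extent it stood 2339th for AML1, 1940th for AML1-ETO, 2267th for N-CoR and 4834th for p300.

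RUNX1 is transcribed from a distal promoter (P1), the canonical start, and a proximal one (P2) 161 kb further down, whose transcripts encode AML1 with another N-terminus. Of the 73 summits, 35 lay between the promoters, 28 upstream of the distal start and 10 downstream of the proximal start. AML1-ETO was densest between the promoters, with 13 summits or 8.09 per 100 kb, against 2.83 per 100 kb downstream of the proximal start and 1.04 upstream of the distal one. The stretch between them runs from start to start, so its count includes summits at both promoters. Examples are the AML1-ETO summits 43 bp from the distal start and 283 bp from the proximal one. The other 4 lists had the same order of densities. The values per 100 kb were 4.36, 2.83 and 0.625 for AML1 and 3.74, 1.89 and 0.937 for N-CoR. They were 3.74, 0.944 and 0.312 for p300 and 1.87, 0.944 and 0 for H3K4me3. In the 960 kb upstream there were 10 AML1-ETO, 9 N-CoR, 6 AML1 and 3 p300 summits and no H3K4me3 summit.

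**Figure D2:**
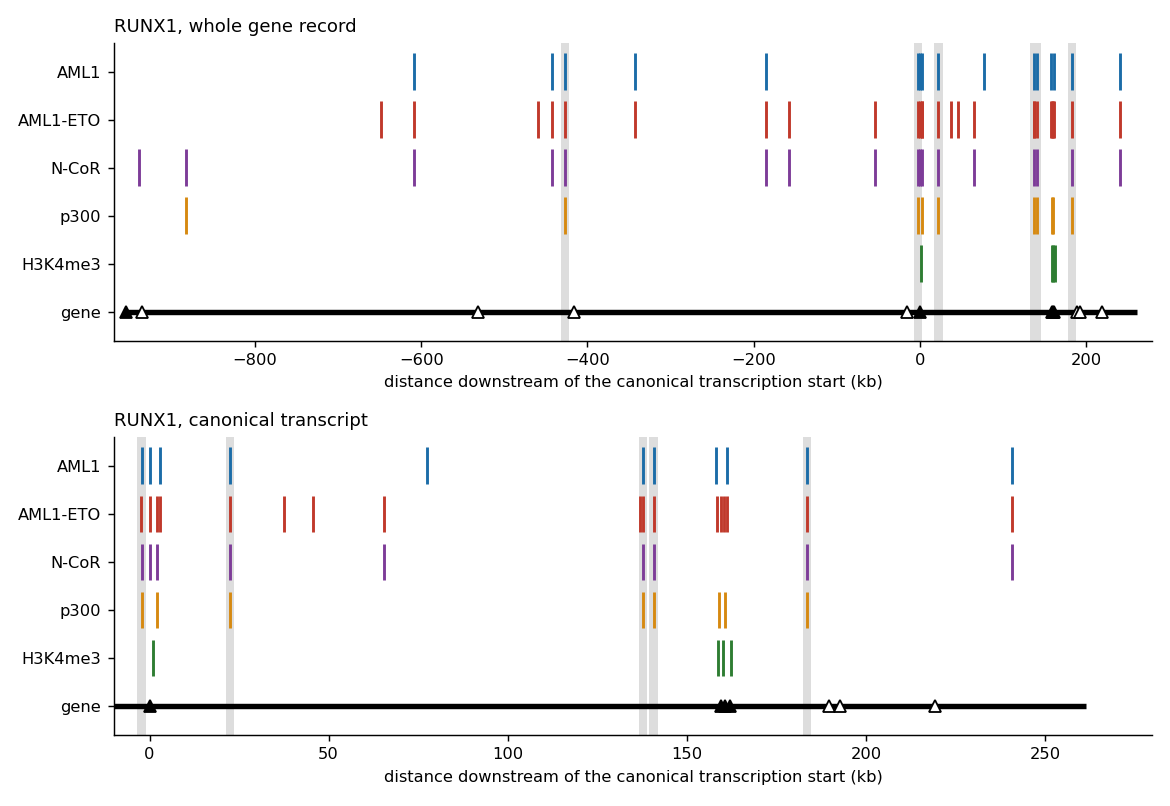
Summits of the 5 lists at RUNX1 by distance downstream of the canonical start (kb), over the whole gene record (top) and the canonical transcript (bottom). Triangles mark annotated starts (filled: at least 1 coding transcript; open: non-coding only), the black bar the gene and grey bands the 6 sites with all 4 proteins, none of which lies on an H3K4me3 summit.

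The promoters of RUNX1 differed in what bound them. The study used a known AML1 binding region of the distal promoter to check AML1-ETO enrichment by ChIP-PCR before library preparation. Binding there was therefore known beforehand. At the distal start AML1-ETO and N-CoR had their summits on the same base, chr21:36421556, 43 bp inside exon 1 in the 5′ untranslated region, and the AML1 summit lay 19 bp away. No p300 summit was within 1000 bp of that start. H3K4me3 was 833 bp from the middle of this site, in intron 2. On either side stood further sites: all 4 proteins within 28 bp of each other at -2.23 kb, AML1-ETO, N-CoR and p300 within 24 bp of each other at +2.17 kb, and AML1 with AML1-ETO at +2.84 kb. At the proximal promoter, by contrast, 3 H3K4me3, 2 p300, 4 AML1-ETO and 2 AML1 summits were spread over about 4 kb around the start at chr21:36260987, without N-CoR, whose nearest summit was that of the +141 kb site. In that stretch AML1-ETO and AML1 shared a site once, 73 bp apart, and the other AML1-ETO, AML1 and p300 summits each stood alone. None of the AML1-ETO windows of the proximal promoter held TGTGGT.

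Of the 6 sites of all 4 proteins at RUNX1, the tightest was at +22.4 kb in intron 2, where the 4 summits fell within 14 bp. The sites at +141 kb and +138 kb lie in the same intron, with summits within 20 and 59 bp. The site at +184 kb in intron 5 spanned 17 bp and also lies in ENSG00000286153, an lncRNA gene on the opposite strand. The nearest H3K4me3 summit to these 4 lay between 18073 and 21529 bp away. Sites of AML1, AML1-ETO and N-CoR without p300 were found at 241 kb in intron 7, at the distal start, and at -186, -443 and -609 kb upstream. Over the gene, 14 of 26 AML1-ETO summits overlapped AML1, 14 overlapped N-CoR, 7 overlapped p300 and 9 overlapped none of them.

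CBFA2T3, which encodes ETO2, a co-repressor in the TAL1 and E protein complexes of blood precursors, had the most summits per 100 kb of each of the 4 proteins among the 7 genes, also when RUNX1 was taken over its canonical transcript. It had 8 AML1-ETO, 5 AML1, 6 N-CoR, 6 p300 and 2 H3K4me3 summits over a gene of 102 kb (chr16:88941266-89043615, minus strand, ENSG00000129993.15), or 7.12, 4.45, 5.34, 5.34 and 1.78 per 100 kb with the 5 kb flanks. By number it stood 97th for AML1-ETO (51 genes had this number), 74th for N-CoR (48 genes), 65th for AML1 (83 genes) and 27th for p300 (26 genes), and by density 1466th, 1248th, 1955th and 2500th for the same lists. All of its protein summits lay in intron 1, in exon 1 or within 2 kb upstream of the canonical start, and none in the later introns.

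**Figure D3:**
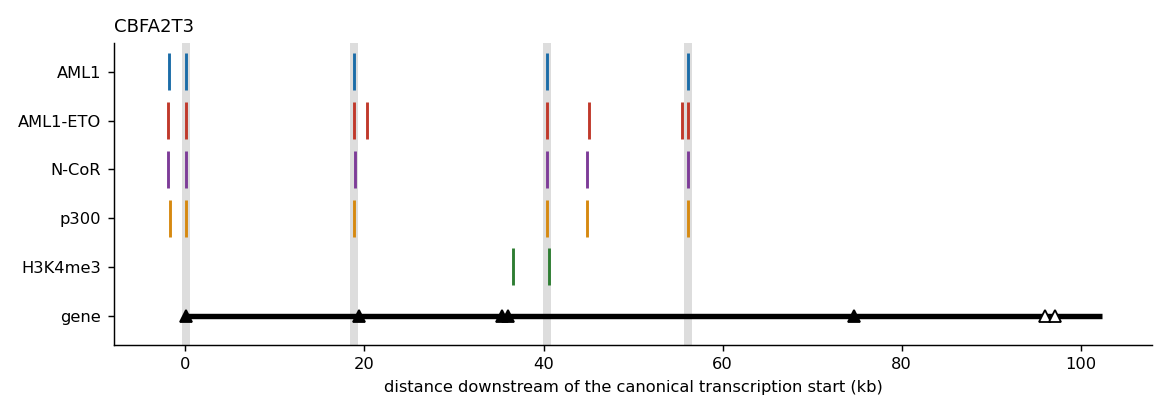
Summits of the 5 lists at CBFA2T3 by distance downstream of the canonical start (kb); triangles mark annotated starts (filled: at least 1 coding transcript; open: non-coding only), the black bar the gene and grey bands the 4 sites with all 4 proteins. The canonical start has all 4 proteins but no H3K4me3, and the 2 H3K4me3 summits lie 36.6 and 40.7 kb downstream.

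The canonical start of CBFA2T3 held all 4 proteins within 46 bp in the 5′ untranslated part of exon 1: N-CoR 22 bp, AML1-ETO 33 bp, p300 45 bp and AML1 68 bp downstream. The nearest H3K4me3 summit to this site was 36516 bp away. A second group at -1.93 kb held AML1, AML1-ETO and N-CoR within 67 bp, with a p300 summit at -1.68 kb that overlapped none of them. The site at +18.9 kb lies 537 to 572 bp upstream of the start of a shorter coding transcript at chr16:89024183, which also had no H3K4me3 within 1000 bp. H3K4me3 was instead found 546 bp downstream of a coding start at chr16:89007606, inside ENSG00000205018, an lncRNA gene on the opposite strand, where no protein summit lay within 1000 bp, and at +40.7 kb, 275 bp from the middle of the +40.4 kb site. The 4 protein summits of that site also lie in ENSG00000261226, an lncRNA gene on the same strand as CBFA2T3, 922 to 973 bp from its nearest annotated start, and the H3K4me3 summit lies 1212 bp from that start, outside the lncRNA gene. The +40.4 kb site was the only one of the 10 sites of all 4 proteins at the 7 genes with H3K4me3 within 1000 bp. Of its 8 AML1-ETO summits, 5 overlapped AML1, the same 5 overlapped N-CoR, and 4 overlapped p300.

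RUNX2, the Runx factor of bone formation, had 8 AML1-ETO, 4 AML1, 2 N-CoR, 1 p300 and 3 H3K4me3 summits over 336 kb (chr6:45295894-45632086, plus strand, ENSG00000124813.23), and none of its 9 protein sites held all 4 proteins. The distal start, at which the canonical transcript begins, had no summit of any list within 1000 bp. The proximal start had AML1-ETO summits at 93.9 and 94.5 kb, the first in intron 2 and the second in coding exon 3, and H3K4me3 712 bp downstream of its last start, but neither AML1, N-CoR nor p300. Another H3K4me3 summit lay at 91.8 kb, 1836 bp from the start of a gene with an identifier only, ENSG00000271857. A further group of AML1-ETO, p300 and H3K4me3 at 49.4 to 50.1 kb in intron 2 lay 165 to 450 bp from a start of SUPT3H, a neighbouring gene that overlaps RUNX2. Downstream of the proximal start AML1-ETO was found at 118 kb with N-CoR, at 152 and 167 kb with AML1, at 168 kb with AML1 and N-CoR, and in coding exon 9 at 219 kb with AML1. All 4 AML1 summits of RUNX2 thus overlapped AML1-ETO, and the sites at 152 and 167 kb held the Runx core in the AML1-ETO window, of which the first is shown.
RUNX2 +152 kb, intron 5, chr6:45448249-45448348: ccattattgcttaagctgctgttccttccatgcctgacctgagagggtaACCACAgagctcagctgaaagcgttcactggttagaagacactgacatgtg

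RUNX3, the Runx factor of T cell and neuronal development, had no AML1 and no N-CoR summit within 5 kb of the gene (chr1:25226002-25291612, minus strand, ENSG00000020633.19). Its 5 summits all lay at the proximal start, which is canonical: AML1-ETO 164 bp upstream and 971 bp downstream, p300 244 bp upstream, and H3K4me3 460 bp upstream and 828 bp downstream. The distal start, at chr1:25291501, had no summit within 1000 bp. The upstream window holds GAGGAA and no Runx core.
RUNX3 -164 bp, upstream of the proximal start, chr1:25256881-25256980: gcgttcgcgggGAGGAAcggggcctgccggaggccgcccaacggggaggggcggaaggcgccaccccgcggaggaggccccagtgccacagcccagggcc
In the wider view AML1, AML1-ETO and N-CoR met within 18 bp at 57.6 kb downstream of the canonical start, beyond the end of the gene, and AML1 and AML1-ETO had summits on the same base at -67.5 kb. The AML1-ETO windows of both sites hold TGTGGT.

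CBFB (chr16:67062887-67134961, plus strand, ENSG00000067955.15) had p300 307 bp upstream of its canonical start, H3K4me3 386 bp upstream and 468 bp downstream, and a lone AML1 summit at 34.1 kb in intron 3 whose window holds TGTGGT. AML1-ETO and N-CoR came no nearer than 9658 and 9644 bp to the gene. Those summits, with AML1, formed a site beside the start of the neighbouring gene PHAF1, 515 to 569 bp from it. CBFA2T2 (chr20:32077881-32237842, plus strand, ENSG00000078699.22), which encodes the ETO relative MTGR1, had p300 304 bp upstream of its canonical start and H3K4me3 at -449 bp and +397 bp. Its 4 later starts had no summit within 1000 bp, and its nearest AML1-ETO summit lay 13715 bp from the gene, 32 bp from a start of NECAB3. The same layout, p300 alone with H3K4me3 on both sides of the canonical start, was thus found at both genes. As many as 557 other protein-coding genes had the same 5 counts as CBFA2T2 and 154 had those of CBFB.

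**Figure D4:**
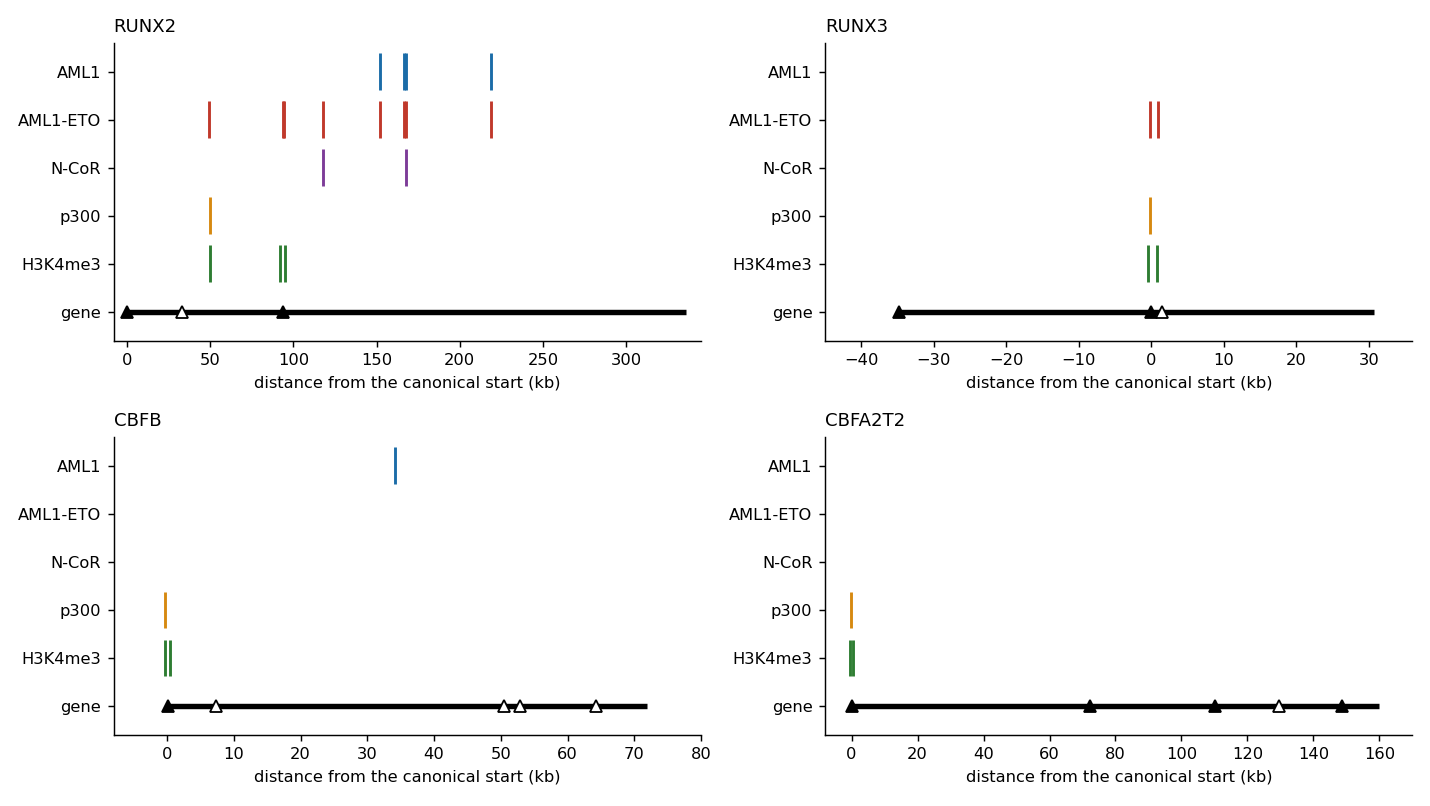
Summits of the 5 lists at RUNX2, RUNX3, CBFB and CBFA2T2 by distance from the canonical start (kb, positive downstream); triangles mark annotated starts (filled: at least 1 coding transcript; open: non-coding only) and the black bar the gene. CBFB and CBFA2T2 have p300 and 2 H3K4me3 summits at the canonical start, whereas the RUNX3 summits sit at its proximal start and most RUNX2 summits lie in introns.

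RUNX1T1, the gene of ETO (chr8:92967200-93115514, minus strand, ENSG00000079102.17), had no summit of any list in the gene or within 50 kb. None of its 12 annotated starts was bound or carried H3K4me3. The nearest AML1 and AML1-ETO summits lay 421371 and 421421 bp from the gene, the nearest H3K4me3 summit 862622 bp, and the nearest p300 and N-CoR summits more than 1000 kb. A count of 0 was not rare in these lists, since 5200 other protein-coding genes also had no summit of any of them within 5 kb. At a gene without a summit, binding below the threshold of the peak calling cannot be seen.

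The 7 genes have 47 annotated starts, counting starts closer than 500 bp to each other once. H3K4me3 was within 1000 bp of 10 of them, or 21.3% (95% interval 10.7 to 35.7), beside 23.5% of all 69701 starts of protein-coding genes. Within 500 bp the shares were 10.6% and 20.1%. The lists hold no peak widths, so a start inside an H3K4me3 peak can lie further than 1000 bp from its summit. AML1-ETO was within 1000 bp of 9, or 19.1% (9.15 to 33.3), beside 8.88%, a value just outside the interval. Of these 9 starts, 4 belong to RUNX1, 2 to RUNX3, 2 to CBFA2T3 and 1 to RUNX2, and 3 of those of RUNX1 lie within 3 kb of each other. Neighbouring starts of RUNX1 and of RUNX3 can share a summit, so the starts are not independent and the interval is too narrow. The counts were 5 for AML1 (10.6%, 3.55 to 23.1, beside 6.54%), 3 for N-CoR (6.38%, 1.34 to 17.5, beside 4.89%) and 7 for p300 (14.9%, 6.2 to 28.3, beside 13.2%). The 3 starts with N-CoR were the distal start of RUNX1 and 2 starts of CBFA2T3, and each of them also had AML1 and AML1-ETO. The starts with p300 were spread over 5 genes.

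Over all 7 genes, most AML1 and N-CoR summits were found with AML1-ETO. Of 26 AML1 summits 23 overlapped an AML1-ETO window, 88.5% (69.8 to 97.6), beside 71.5% of AML1 summits on all nuclear chromosomes, and of 25 N-CoR summits 21 did, 84% (63.9 to 95.5), beside 70.3%. For p300 the share was 12 of 20, or 60% (36.1 to 80.9), beside 35.8%. Only the interval of p300 left out the value of the whole list, and it did so by less than 1 percentage point. In the other direction, 23 of 44 AML1-ETO summits overlapped AML1, 52.3% (36.7 to 67.5) beside 46.2%, 21 overlapped N-CoR, 47.7% (32.5 to 63.3) beside 38.9%, and 12 overlapped p300, 27.3% (15 to 42.8) beside 21.8%. AML1-ETO stood without the other 3 proteins at 16, or 36.4% (22.4 to 52.2), beside 38.3%. None of these 4 intervals left out the value of the whole list, and summits of 1 gene share their locus and are not independent.

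**Figure D5:**
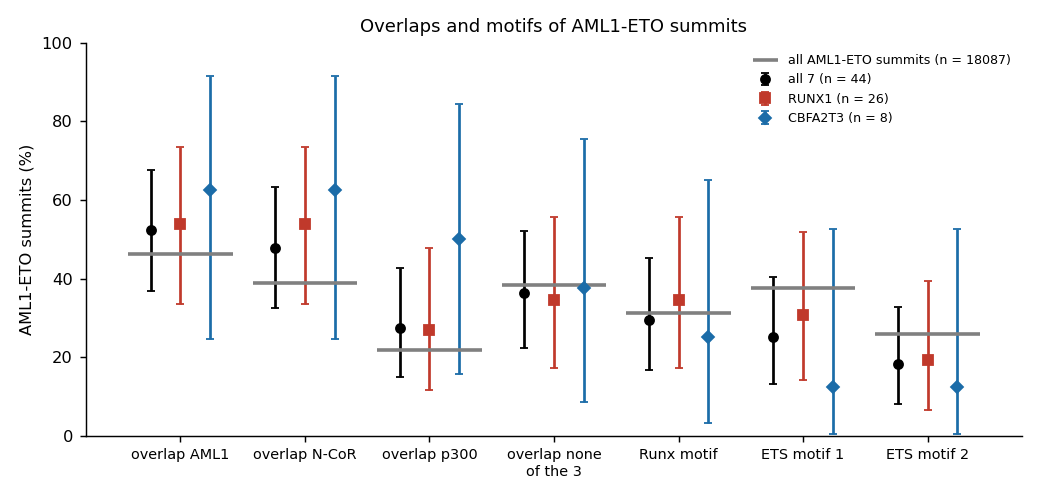
Share of AML1-ETO summits (%, vertical axis) that overlap each other protein or none of the 3, or whose window holds TGTGGT (Runx motif), AGGAAG (ETS motif 1) or GAGGAA (ETS motif 2), for all 7 genes (circles), RUNX1 (squares) and CBFA2T3 (diamonds) with exact 95% intervals, and for all 18087 AML1-ETO summits (grey lines). Every interval drawn spans the grey line beside it.

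When summits of the 4 proteins at most 99 bp apart were joined, the 7 genes held 58 protein sites. Of these, 29 had a single protein, 50% (36.6 to 63.4), beside 57% of all sites. All 4 proteins met at 10, 17.2% (8.59 to 29.4), beside 2286 of 29448 sites of all chromosomes, 7.76%. These 10 sites lay at RUNX1 (6 of 34 sites) and CBFA2T3 (4 of 10), and 0 of the 14 sites of the other genes was of this kind (0%, 0 to 23.2). Of all protein-coding genes, 8.53% had such a site in the gene or within 5 kb, beside 2 of the 7 (RUNX1 and CBFA2T3). H3K4me3 lay within 1000 bp of 1 of the 10, 10% (0.253 to 44.5), beside 31.5% of all sites with 4 proteins. Of the 7 sites with p300 alone 5 were near H3K4me3, 71.4% (29 to 96.3) beside 89.1%, namely 2 at the proximal promoter of RUNX1 and 1 each at RUNX2, CBFB and CBFA2T2. AML1-ETO without the other 3 proteins, the most frequent class, was near H3K4me3 at 6 of 16 sites, 37.5% (15.2 to 64.6) beside 27.8%. AML1 with AML1-ETO alone was near H3K4me3 at 0 of 6 sites, beside 18.4%, and AML1 with AML1-ETO and N-CoR at 1 of 7, the distal start of RUNX1, beside 11.5%. Over all 58 sites the share near H3K4me3 was 25.9% (15.3 to 39), beside 42.2%. The 58 include the RUNX1 sites in the 960 kb upstream of its distal start, a stretch without an H3K4me3 summit. None of those sites was near H3K4me3, so the lower share depends in part on the long record of this 1 gene.

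The genes closest to RUNX1 in summits per list, by Euclidean distance of log2(number + 1) over the 5 lists, were SEPTIN9 (0.551), ZMIZ1 (0.862), RPTOR (0.932), GSE1 (0.959) and CDH23 (0.968). SEPTIN9, a cytoskeletal septin, had 23 AML1-ETO, 14 AML1, 18 N-CoR, 10 p300 and 6 H3K4me3 summits over 220 kb. For CBFA2T3 they were SLC16A3 (0.376), RAB27A (0.411), TBC1D2B (0.464), ITPKB (0.501) and MRPL33 (0.503), with 6 to 10 AML1-ETO and 5 to 8 N-CoR summits. Among 19 genes of proteins that work with AML1-ETO (co-repressor complexes, co-activators, and E proteins with their partners), AML1 was found at 13, AML1-ETO at 15, N-CoR at 14, p300 at 16 and H3K4me3 at 19. The shares of all genes were 34.9%, 41.4%, 26.7%, 45.5% and 68.0% in the same order. Of the 19 genes, 9 had a site of all 4 proteins, beside 8.53% of all genes. LYL1, a partner of E proteins, had 5 AML1-ETO, 5 N-CoR and 5 p300 summits in its 4.13 kb with 5 kb on each side, with sites of all 4 proteins at 3 positions, and TCF12, an E protein, had 3 such sites over 381 kb. CBFA2T3 had 4 and RUNX1 had 6.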

How the data were processed

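ChIP-seq libraries of Kasumi-1 cells were made in 2 biological replicates per antibody. Per the submitters' processing notes and the study's methods, reads were handled with CASAVA 1.6, aligned to GRCh37 (hg19) with Bowtie 0.12.8 allowing 2 mismatches, and peaks were called on the pooled replicates with MACS2 2.0.10.20131216. The threshold was 1e-20, and the control used is not given in the sources used here. The authors deposited 5 BED files of positions (chromosome, start, end and a numbered name), with no score, read count or p-value. All intervals were found to span 100 bp and to lie inside the chromosomes of the reference, and the summit was taken as its centre, counted from 1. H3K27me3 and input were not analysed here. A sequence window and a named gene that the rules below select are not reported here.

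Genes, transcripts and exons came from GENCODE release 44 lifted to GRCh37. Summits were counted per gene with 5 kb or 50 kb added. Starts closer than 500 bp were merged. Windows sharing at least 1 bp overlapped, and summits of the 4 proteins at most 99 bp apart were chained into sites. Letters were searched on both strands within 50 bp of a summit. Named genes were the 7 members, the 5 nearest to RUNX1 and to CBFA2T3, the partner genes with most summits, and neighbours holding a summit. The members, lists and measures were chosen with earlier results of these data known. Counting was tested on simulated data, where the planted counts of all 2000 genes, all 250 planted sites of 4 proteins and all 250 planted motif windows were recovered. Other distances, merging of near summits, coding or canonical transcripts, other letters and other measures of likeness were tried as alternatives. The tools were samtools 1.23.1 and Python 3.11.15 with matplotlib 3.10.9, pysam 0.24.0, SciPy 1.17.1 and numpy 2.4.6.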

Additional observations from a re-analysis of the deposited data

How the results depend on the processing

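Of 84 alternative values for 22 results, 79 stayed within 1.5 times the count, or within the interval of the share, that is given above. With 50 kb added on each side the 7 genes had 27 H3K4me3 summits, and 6 of them had N-CoR, since the searched stretch is longer. Within 500 bp, H3K4me3 was found at 10.6% of the starts, beside 20.1% of all starts. Within 100 bp of a summit, AGGAAG was found at 43.2% of the AML1-ETO summits, beside 53% of the whole list, for the same reason. When counts per 100 kb were compared, 0 of the 5 genes closest to RUNX1 remained, and MSRA, ATG7, ZBTB16, ARHGEF12 and LOXHD1 took their place. Over the canonical transcripts, an extent chosen after seeing the data, the 7 genes had 35 AML1-ETO, 21 AML1, 18 p300, 17 N-CoR and 15 H3K4me3 summits, and 9 sites of all 4 proteins, against 10 or 11 with summits up to 50 or 250 bp apart. No paired analysis was possible because each antibody has a single pooled list. The lists hold no heights or read counts, so a stricter threshold could not be tried, and weak binding and its absence cannot be told apart.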
